A study of Mus musculus with 29 samples.

Results

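Collagen genes were read from a table of RNA-seq counts in the tibialis anterior (TA), the fast-twitch muscle at the front of the shin, of ageing mice. The members were every row whose symbol had the form Col, a type number, a and a chain number, which gave 43 of the 22537 genes in the table. The animals were male C57BL/6 mice of a National Institute on Aging colony, all of which had been put through tests of physical function before the muscle was taken. The muscle was collected under ketamine and xylazine anaesthesia, and the sources name no transgene and no other drug for any group. There were 7 mice of 6 months (6m, adult), 7 mice of 24 months (24m) and 8 mice that the labels give as 28 months or older (28m), which made 22 mice in all. Poly-A RNA of the 6m mice was made into libraries a second time, so that 1 set of 6m libraries was sequenced with the 24m libraries (first run) and the other with the 28m libraries (second run), for 29 libraries. Each old group was compared with the 6m libraries of its own run, because age and run cannot be told apart across runs. The RNA came from whole muscle, so that a count sums over the fibres and every other cell type in it.

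Collagens are the main proteins of the extracellular matrix and share a triple helix, built of 3 chains in which glycine recurs at every 3rd residue. In skeletal muscle, fibrillar collagens (types I, III and V) form the load-bearing fibres between the muscle fibres and in the tendon sheets, type IV collagen forms the sheet of the basement membrane around each fibre and capillary, and type VI collagen forms beaded filaments that link both layers. Most of these mRNAs are made by fibroblasts and other interstitial cells, while the muscle fibres, vessels and nerves contribute some of the rest. By class, the table held 11 fibrillar genes, 6 type IV genes, 6 type VI genes, 9 genes of fibril-associated collagens (FACITs, which sit on the surface of fibrils), 4 transmembrane collagens, 2 multiplexins (types XV and XVIII, which lie at basement membranes), 3 short-chain network collagens (types VIII and X) and 2 others (Col7a1, of the anchoring fibrils, and Col28a1).

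The rule for membership used the symbol alone, and the repeat behind the shared name can be read in the genes themselves. The stretches below are single coding exons, given 5′ to 3′ on the strand of the gene from the GRCm38 genome with GENCODE M21 annotation, the assembly that the mm10 counts were made on. They come from fibrillar, type VI, anchoring fibril and type IV genes on which the results turn, and capitals mark the glycine codons (GGN) that open a Gly-X-Y triplet when runs of at least 3 triplets are read from the 5′ end.
Col1a1, coding exon 8 of 51, chr11:94939904-94939957, plus strand: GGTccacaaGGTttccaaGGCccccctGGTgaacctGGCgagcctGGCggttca
Col3a1, coding exon 6 of 51, chr1:45325360-45325413, plus strand: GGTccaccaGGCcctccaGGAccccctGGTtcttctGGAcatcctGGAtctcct
Col6a1, coding exon 9 of 35, chr10:76719623-76719676, minus strand: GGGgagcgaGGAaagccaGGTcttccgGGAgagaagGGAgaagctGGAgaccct
Col7a1, coding exon 106 of 118, chr9:108980207-108980260, plus strand: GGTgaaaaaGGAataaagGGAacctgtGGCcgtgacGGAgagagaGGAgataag
Col4a1, coding exon 31 of 52, chr8:11220982-11221095, minus strand: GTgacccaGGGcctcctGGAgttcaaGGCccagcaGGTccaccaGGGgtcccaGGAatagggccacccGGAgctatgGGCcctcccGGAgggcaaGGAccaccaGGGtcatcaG
The exons of Col1a1, Col3a1, Col6a1 and Col7a1 were each 54 bases long and held 6 triplets with no break. The Col4a1 exon was 114 bases long, opened and closed inside a glycine codon, and the spacing of its glycines broke once. At the break the lower-case ggg is a glycine codon too, which this reading took as the last codon of the triplet before it. Over the whole coding sequence the longest unbroken run was 338 triplets in Col1a1, 339 in Col1a2 and 344 in Col3a1. It was 40 triplets in Col4a1, whose repeat fell into 23 runs, 75 in Col7a1, whose repeat fell into 21 runs, and 87 in Col6a1.

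The type IV genes lie in head-to-head pairs, which the results below describe pair by pair. Col4a1 (minus strand) and Col4a2 (plus strand) start on opposite strands of chromosome 8 with 22 bases shared between their first exons. Col4a4 (minus strand) and Col4a3 (plus strand) start 71 bases apart on chromosome 1. The bases of both pairs are shown on the plus strand, because the members of a pair are set side by side in what follows. Both stretches come from the RefSeq promoter table in GRCm38.
Col4a1 and Col4a2, shared bases, chr8:11312805-11312826: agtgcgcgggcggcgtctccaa
Col4a4 and Col4a3, bases between the starts, chr1:82586850-82586920: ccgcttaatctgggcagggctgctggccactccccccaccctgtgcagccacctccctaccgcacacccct
The stretch between Col4a4 and Col4a3 was 69.0% G and C. The third pair, Col4a6 and Col4a5 on the X chromosome, starts 1308 bases apart. In the RefSeq promoter windows, 300 bases around a start, which covered 35 of the 43 genes, the letters GGGCGG (the core of the GC box) were found on either strand in 23 of 38 collagen windows, or 22 of the 35 genes, and in 35.7% of all 32851 windows. The letters CCAAT were found on either strand in 13 of 38 collagen windows and in 37.4% of all windows. A match describes the letters only.

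Total counts per library ran from 17633475 to 33499162, with a median of 24250878, and levels below are CPM, counts relative to library size as scaled by edgeR's trimmed mean of M-values. The fast-fibre markers that define the TA summed to 196700 to 213800 CPM at 6m in the second run and 185500 to 217800 CPM at 28m. In the first run they summed to 190300 to 212200 CPM at 6m and 135800 to 222600 CPM at 24m, with the lowest sums in 24m replicates 5, 7 and 2. Libraries differed in how their counts changed with the length of the transcript. The Spearman correlation across genes between exonic length and a library's deviation from the mean of all libraries was positive in all 7 second-run 6m libraries (0.391 to 0.522), in 6 of 7 first-run 6m libraries (-0.545 in replicate 4), in 5 of 7 libraries at 24m and in 2 of 8 at 28m (replicates 4 and 8). Collagen transcripts are long, with a median of 6378 exonic bases against 3355 over all genes tested, and the values of the collagen genes with the trend removed are given after the 28m results.

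Per kilobase of exon, the fibrillar mRNAs led at 6m. In the second-run libraries Col3a1 had 65.1 ± 80.9 CPM per kb (SD, n = 7), Col1a2 had 51.4 ± 46.0 and Col1a1 had 36.0 ± 40.0. Col4a1 followed at 28.7 ± 8.44 and Col4a2 at 23.4 ± 5.34, then Col6a1 at 19.4 ± 10.5 and Col6a2 at 11.6 ± 7.06 CPM per kb. The ranges of neighbours in this order overlapped, except between Col7a1 (3.61 to 4.41 CPM per kb) and Col22a1 (2.02 to 2.74) and between Col4a4 (0.170 to 0.257) and Col9a2 (0.0386 to 0.124). Col6a4, a type VI chain, stood last at 0.00984 ± 0.00492 CPM per kb. Collagen genes together took 0.176% ± 0.136 of the counts of a second-run 6m library (0.0927% to 0.476%), and Col1a1, Col1a2 and Col3a1 took 0.0866% ± 0.0979.

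The comparison of 28m with 6m asked which genes differ in the muscle of the oldest mice. Collagen mRNAs were lower at 28m in most classes, and 1 gene was higher. All collagen genes together took 0.0736% ± 0.0389 of the counts at 28m (0.0341% to 0.156%, n = 8), and the range overlapped that of the 6m libraries. Of the 43 genes, 34 had enough counts to be tested, and by edgeR's quasi-likelihood F test, with p-values adjusted over the whole table (padj, a pass is under 0.05), 19 fell and 1, Col7a1, rose. Over all 12994 genes tested, 22.9% fell and 24.3% rose. Of the 19 that fell, 16 changed at least 2-fold (absolute log2 fold change, log2fc, of 1 or more), the limit for a differentially expressed gene (DEG), which 3.37% of all genes met downward. Without 6m replicate 2, the 6m mouse with the high fibrillar levels, 8 genes fell past this limit, and 2 did with the length and GC trend removed. The median log2fc was -0.93 over the 34 collagen genes and 0.009 over all genes (-0.58 and 0.028 without 6m replicate 2), and 28 of the 34 values were below 0. In whole muscle, fewer cells of a type and less RNA per cell cannot be told apart.

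**Figure D1:**
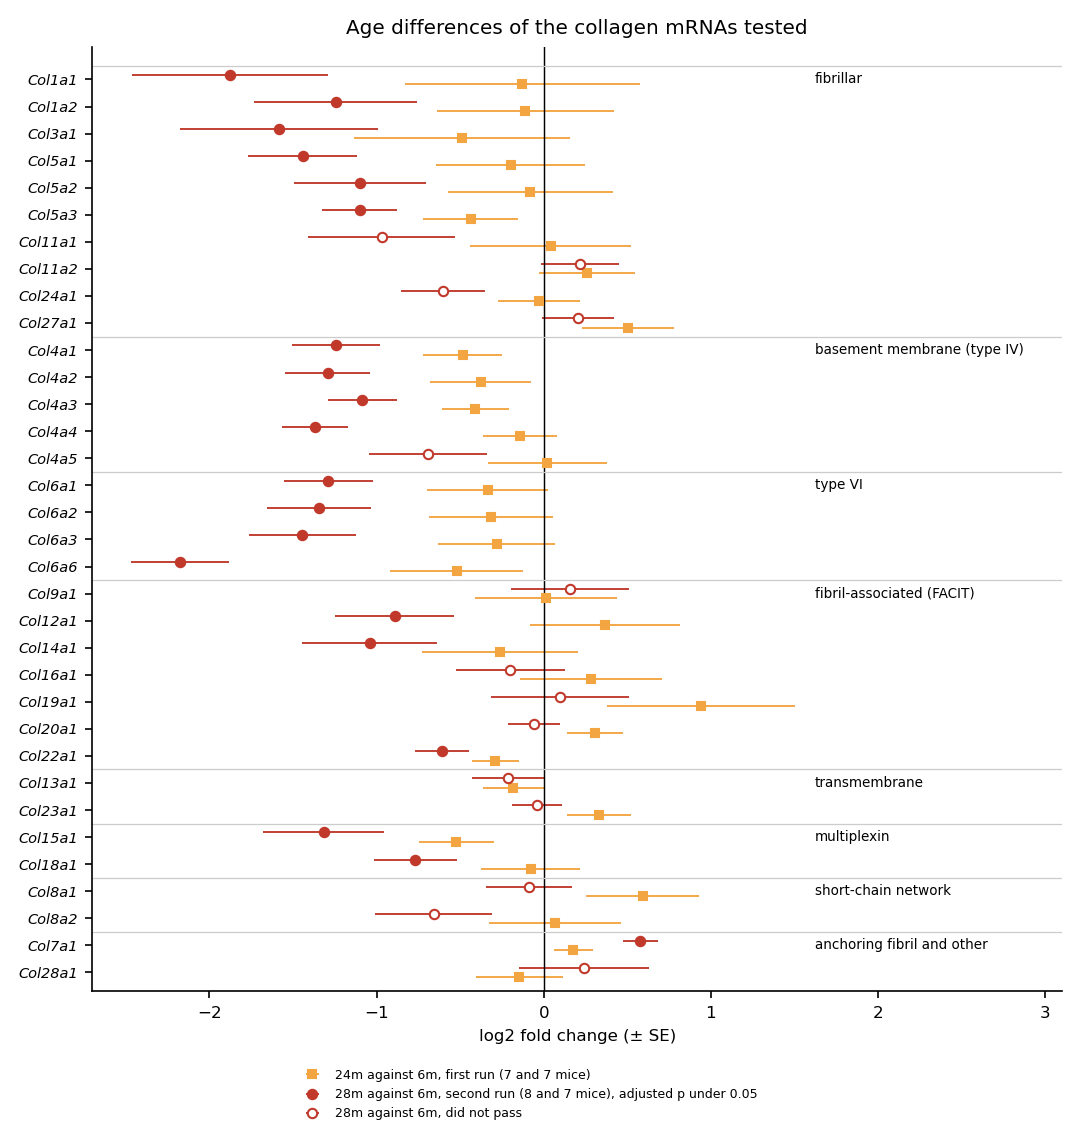
Log2 fold change (x axis, ± SE) of the 34 collagen genes tested in both comparisons (y axis, by class); circles are 28m against 6m in the second run, filled where padj was under 0.05, and squares are 24m against 6m in the first run. Of the 20 filled circles, 19 lie left of 0 and only Col7a1 lies right of it, and none of the 24m squares passed.

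Among the fibrillar genes, 6 of 10 tested fell, the median log2fc was -1.10, and the major chains had the highest levels. Col1a1 and Col1a2 encode the chains of type I collagen, the most abundant collagen of tendon and muscle connective tissue. Col1a1 had a lowest, median and highest level of 63.1, 124 and 735 CPM at 6m and 12.8, 35.3 and 157 CPM at 28m, and levels by mouse are given in this order for the genes that follow. Its level was lower at 28m by a log2fc of -1.88 (SE 0.586, padj = 0.0160), or 3.68-fold. The groups overlapped, with 5 of 8 mice at 28m below every 6m mouse. Col1a2 went from 105, 195 and 812 CPM at 6m to 51.8, 71.3 and 358 CPM at 28m (log2fc -1.24, SE 0.489, padj = 0.0456). Col3a1, the single chain of type III collagen, went from 109, 176 and 1364 CPM to 38.3, 75.3 and 343 CPM (log2fc -1.58, SE 0.593, padj = 0.0376). For each of these, again 5 of 8 old mice lay below the whole 6m range.

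The type V genes, whose chains mix into type I fibrils and set their diameter, fell with them. Col5a1 went from 24.2, 38.7 and 116 CPM at 6m to 8.71, 17.2 and 31.1 CPM at 28m (log2fc -1.44, SE 0.325, padj = 0.00280), and 6 of 8 old mice lay below every 6m mouse. Col5a2 went from 21.8, 25.1 and 119 CPM to 9.88, 14.8 and 37.4 CPM (log2fc -1.10, padj = 0.0309), with 5 of 8 below. Col5a3 went from 28.1, 32.4 and 81.9 CPM to 14.5, 20.2 and 28.5 CPM (log2fc -1.10, padj = 0.00167), with 7 of 8 below. The other 4 fibrillar genes tested did not pass. They were Col11a1 (log2fc -0.97, padj = 0.0785) and Col11a2 (0.22), the type XI chains better known from cartilage, and Col24a1 (-0.60, padj = 0.0587) and Col27a1 (0.20). Col24a1 passed with DESeq2 (padj = 0.0433) and limma-voom (padj = 0.0436), and Col11a1 with limma-voom (padj = 0.0447).

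The 6m values of the fibrillar genes rested in part on 1 mouse, 6m replicate 2, which had the highest Col1a1, Col1a2, Col3a1, Col5a1, Col5a2 and Col5a3 in both of its libraries. Without it, the log2fc of Col1a1 was -1.11 (padj = 0.0729), that of Col1a2 was -0.66 (padj = 0.205), that of Col3a1 was -0.67 (padj = 0.240) and that of Col5a2 was -0.52 (padj = 0.141), so that these genes no longer passed. Over the collagen genes 12 then fell and 1 rose, with a median log2fc of -0.58. The calls of Col5a1 and Col5a3 held in all 15 fits that left out 1 mouse, and that of Col1a1 was lost in no other. The call of Col1a2 was lost in 11 of the 15, and held only without 6m replicate 1, 3 or 5 or 28m replicate 5 (log2fc -1.32 to -0.66, padj 0.05001 to 0.205 where lost). That of Col3a1 was lost in 7, the others being without 6m replicate 6 and without 28m replicate 1, 2, 3, 4 or 8 (log2fc -1.57 to -0.67, padj 0.0563 to 0.240), and that of Col5a2 in 5, the others being without 6m replicate 6 and without 28m replicate 1, 2 or 3 (log2fc -1.08 to -0.52, padj 0.0511 to 0.141). 6m replicate 2 also had the highest summed fibroblast markers (2009 CPM in the second run), tendon markers (408 CPM) and immune markers (310 CPM) of the 6m mice, and their part in its collagen levels was not tested.

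Both genes of the Col4a1 and of the Col4a4 pair fell. Of 5 type IV genes tested 4 fell, with a median log2fc of -1.24. Col4a1, which with Col4a2 makes the common network of all basement membranes, had 147, 172 and 309 CPM at 6m and 43.2, 69.2 and 167 CPM at 28m (log2fc -1.24, SE 0.261, padj = 0.00198). Only the highest old mouse reached the 6m range. Col4a2 had 128, 135 and 225 CPM at 6m and 31.7, 60.5 and 101 CPM at 28m (log2fc -1.29, SE 0.254, padj = 0.00143), with no overlap in the second run. The other pair, whose chains join that of Col4a5 in the kidney filter and at the neuromuscular junction, was expressed at far lower levels, at 0.347 ± 0.0679 CPM per kb for Col4a3 and 0.218 ± 0.0342 for Col4a4 at 6m. Col4a3 went from 2.17, 2.99 and 3.94 CPM to 0.675, 1.45 and 2.11 CPM (log2fc -1.08, SE 0.207, padj = 0.00119). Col4a4 went from 1.72, 2.32 and 2.60 CPM to 0.392, 0.924 and 1.27 CPM (log2fc -1.37, SE 0.197, padj = 0.000346). The groups of the second run did not overlap for either gene.

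Col4a2, Col4a3, Col4a4 and Col6a6 were the 4 collagen genes of which every 28m mouse lay below every 6m mouse in the second run, a pattern held by 6.18% of all genes tested. In the first-run library of 6m replicate 4, Col4a2 had 71.15 CPM, Col4a3 1.692 CPM and Col6a6 1.586 CPM, within the 28m ranges. Col4a4 had 1.269 CPM there, just above the highest 28m value of 1.266 CPM. Col4a5 did not pass (log2fc -0.69, SE 0.353, padj = 0.113), and Col4a6 was too low to be tested. The counting of strand is not given in the sources used here. The shared start makes up 0.29% of the Col4a1 exons, but 563 exonic bases of Col4a3 (5.65%) lie opposite the noncoding gene C430014B12Rik, so that some reads given to Col4a3 may belong to it.

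All 4 type VI genes tested fell. Col6a1, Col6a2 and Col6a3 encode the chains of the common type VI filament, mutations of which cause muscular dystrophy in people. Col6a1 went from 43.0, 66.8 and 171 CPM at 6m to 18.9, 32.0 and 52.0 CPM at 28m (log2fc -1.29, SE 0.266, padj = 0.00182), with 7 of 8 old mice below the 6m range. Col6a2 went from 35.6, 57.6 and 161 CPM to 14.5, 27.7 and 49.1 CPM (log2fc -1.34, padj = 0.00333), with 6 of 8 below. Col6a3 went from 46.1, 57.5 and 170 CPM to 12.9, 26.1 and 53.6 CPM (log2fc -1.44, padj = 0.00257), with 7 of 8 below. Col6a6, an alternative to the Col6a3 chain, had the lowest log2fc of all collagen genes. It went from 2.37, 4.84 and 9.70 CPM at 6m to 0.525, 1.21 and 1.77 CPM at 28m, a fall of 4.52-fold (log2fc -2.17, SE 0.294, padj = 0.000232), and every 28m mouse lay below every 6m mouse in the second run. The other alternative chains, Col6a4 and Col6a5, had at most 18 counts in any library of the comparison and were not tested.

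Both multiplexins fell, and the fibril-associated genes divided. Col15a1, whose product lies at the outer face of muscle and capillary basement membranes, went from 25.2, 36.6 and 71.9 CPM to 6.29, 13.3 and 40.2 CPM (log2fc -1.32, SE 0.363, padj = 0.00850), with 6 of 8 old mice below every 6m mouse. Col18a1, whose product is the source of endostatin, went from 8.13, 10.6 and 24.9 CPM to 4.16, 7.88 and 11.5 CPM (log2fc -0.77, padj = 0.0189), with 5 of 8 below, and did not pass without 6m replicate 2 (log2fc -0.52, padj = 0.0529). Of 7 FACIT genes tested 3 fell. Col22a1, which marks the junction of muscle with tendon, went from 18.1, 21.4 and 24.6 CPM to 7.50, 15.3 and 18.8 CPM (log2fc -0.61, SE 0.159, padj = 0.00646), with 7 of 8 below, but with the length and GC trend removed its log2fc was -0.0011 (padj = 0.997). Col12a1 (5.36, 10.3 and 24.8 CPM to 3.18, 4.48 and 12.03 CPM, log2fc -0.89, padj = 0.0494) and Col14a1 (4.40, 7.05 and 30.6 CPM to 1.76, 5.76 and 9.72 CPM, log2fc -1.04, padj = 0.0433) bind the surface of type I fibrils. For both genes the groups overlapped, with 5 and 3 of 8 old mice below the 6m range, and neither passed without 6m replicate 2 (log2fc -0.59 and -0.56). The call of Col12a1 held only without 6m replicate 3 or 5 or 28m replicate 2, 5 or 7 (log2fc -0.94 to -0.59, padj 0.0569 to 0.161 where lost). That of Col14a1 was also lost without 6m replicate 6 or 7 and without 28m replicate 1, 2, 3, 4 or 8 (log2fc -1.09 to -0.56, padj 0.0508 to 0.179). Col9a1, Col16a1, Col19a1 and Col20a1 did not pass, with log2fc from -0.20 to 0.16.

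Col7a1 went the other way. Its product forms the fibrils that anchor epithelial basement membranes in skin, and its level per kilobase in this muscle ranked 13th of 43 at 6m and 7th at 28m. It had 33.4, 37.3 and 40.8 CPM at 6m and 44.0, 57.1 and 67.6 CPM at 28m (log2fc 0.58, SE 0.104, padj = 0.000872), or 1.49-fold higher. Every 28m mouse lay above every 6m mouse, as for 6.21% of all genes. The highest 6m mouse had 1.22 times the level of the lowest, while for Col1a1 this ratio was 11.7.

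**Figure D2:**
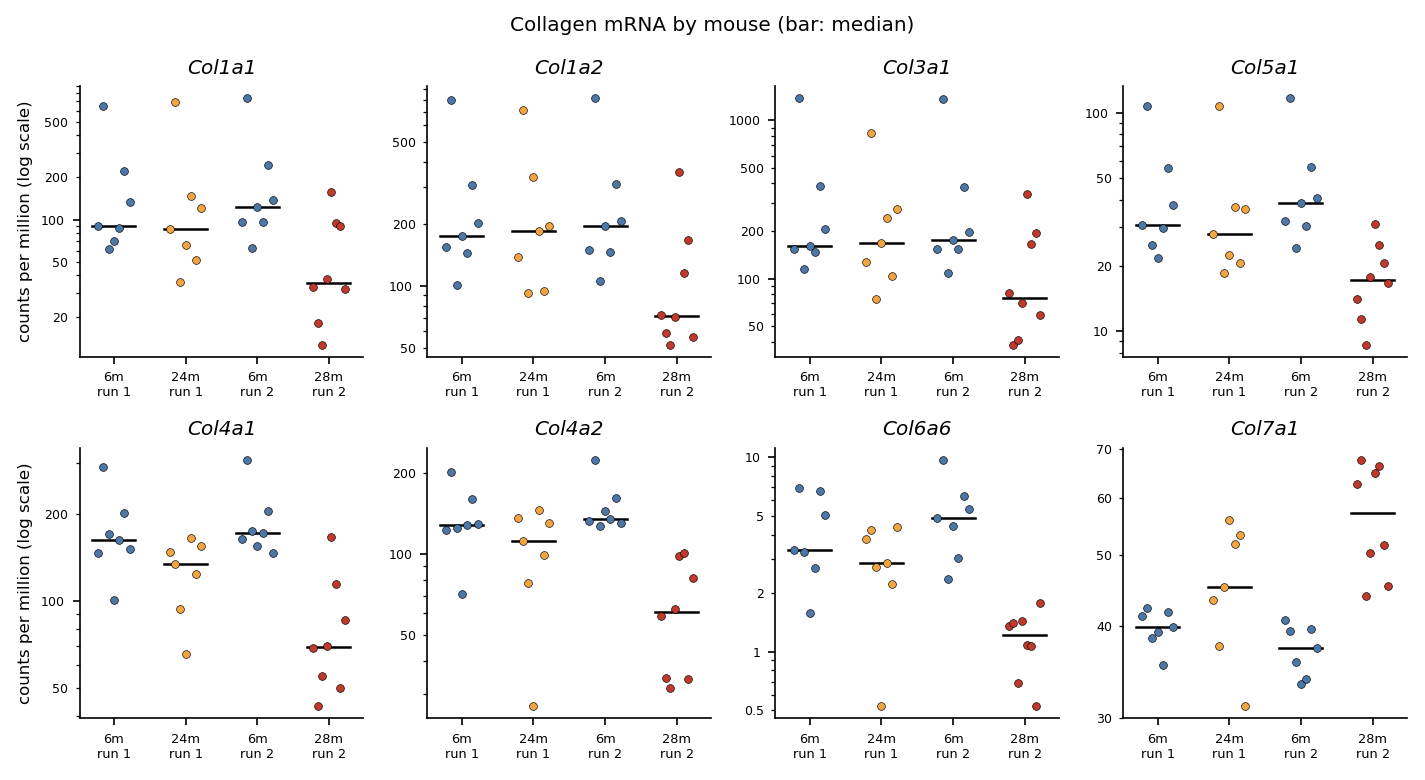
CPM (y axis, log scale) of 8 collagen genes in each of the 29 libraries, by group and run (x axis); each point is 1 mouse and the bar is the median of the group. Col4a2 and Col6a6 at 28m lie wholly below the 6m points of the second run and Col7a1 wholly above them, while the 3 genes of types I and III overlap and have 1 high mouse in the 6m and 24m groups.

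The remaining genes were low or did not pass. Of the short-chain genes, which form lattices around vessels, Col8a1 had 4.67, 5.27 and 14.1 CPM at 6m and 4.19, 5.30 and 9.65 CPM at 28m (log2fc -0.09, padj = 0.790), and Col8a2 had 0.877, 1.94 and 2.90 CPM and 0.453, 0.950 and 2.70 CPM (log2fc -0.66, padj = 0.128). Of the transmembrane genes, Col13a1, found at the neuromuscular junction, had 1.10, 1.36 and 1.93 CPM and 0.759, 1.21 and 2.11 CPM (log2fc -0.21, padj = 0.427), and Col23a1 had 1.96, 2.62 and 3.44 CPM and 2.004, 2.75 and 3.30 CPM (log2fc -0.04). Col28a1, known from peripheral nerve, had 0.501, 0.812 and 1.76 CPM and 0.245, 0.953 and 3.15 CPM (log2fc 0.24, padj = 0.626). The groups overlapped for all 5 of these genes. The 9 genes that were not tested at 28m, Col2a1, Col4a6, Col6a4, Col6a5, Col9a2, Col9a3, Col10a1, Col17a1 and Col25a1, had 0 to 18 counts in each library, and a difference was not detectable at this depth.

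The balance between chains was compared as a ratio of counts within each library, which does not depend on the scaling between libraries. For each of 5 ratios at each age, the difference of the group means of the log2 ratio was tested by a two-sided exact permutation test over mice, with adjustment over the 10 tests. Col1a1 to Col3a1 was 0.465 at 28m (0.312 to 0.575, geometric mean, n = 8) and 0.628 at 6m (0.539 to 0.702, n = 7), a log2 difference of -0.43 (exact permutation p = 0.00124, adjusted p = 0.0124), and 6 of 8 old mice lay below every 6m mouse. Against the first-run libraries of the same 6m mice the difference was -0.23 and did not pass (exact permutation p = 0.0917, adjusted p = 0.485). Col1a1 to Col1a2 was 0.462 at 28m and 0.694 at 6m (log2 difference -0.59), lower in 7 of 8 old mice than in every 6m mouse, and did not pass after adjustment (exact permutation p = 0.0121, adjusted p = 0.0606).

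Within type IV, Col4a1 to Col4a2 was 1.31 at 28m and 1.24 at 6m (exact permutation p = 0.538, n = 8 and 7). Within type VI, Col6a1 to Col6a2 was 1.22 and 1.17 (exact permutation p = 0.460). Across classes, Col1a2 to Col4a1 was 1.26 and 1.18 (exact permutation p = 0.808). None of these passed, nor did any of the 5 ratios at 24m (exact permutation p from 0.311 to 0.992). Of all collagen counts, the fibrillar class took 51.2% ± 10.3 at 6m and 46.3% ± 10.5 at 28m. The class of Col7a1 and Col28a1 took 2.78% ± 1.03 (0.900% to 3.96%) and 8.96% ± 3.49 (4.27% to 15.4%), with no overlap in the second run, but it reached 4.37% in the first-run 6m libraries. The share of the short-chain network class did not overlap in the second run either, at 0.367% to 0.692% and 0.738% to 1.55%, although neither Col8a1 nor Col8a2 passed (log2fc -0.09 and -0.66). A share of the collagen counts also goes up when the counts of other collagen genes go down.

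The trend with transcript length moved with the 28m comparison. Across all genes the log2fc and exonic length had a Spearman correlation of -0.633 (n = 12871 genes), and across the 34 collagen genes of -0.283. These are descriptions across genes of the same libraries. With such a trend of counts with length and GC taken out library by library, 7 collagen genes fell and 4 rose, and the median log2fc of the 34 was -0.36, while of all 12994 genes in that fit 1673 fell (12.9%) and 2285 rose, with a median of 0.024. The 7 that fell were Col4a1 (log2fc -0.71, padj = 0.0470), Col4a2 (-0.80, padj = 0.0106), Col4a3 (-0.54, padj = 0.0329), Col4a4 (-0.76, padj = 0.00364), Col6a1 (-1.04, padj = 0.00519), Col6a2 (-0.88, padj = 0.0320) and Col6a6 (-1.59, padj = 0.000557). They are all genes of types IV and VI. The 4 that rose were Col7a1 (1.30, padj = 0.000215), Col27a1 (0.83), Col11a2 (0.71) and Col20a1 (0.28), and the last 3 of these had not passed before. The other 12 of the 19 falls did not pass in this fit. For the fibrillar genes among them the log2fc was -1.34 for Col1a1 (padj = 0.0862), -0.76 for Col1a2 (padj = 0.251), -1.12 for Col3a1 (padj = 0.156), -0.78 for Col5a1 (padj = 0.0668), -0.59 for Col5a2 (padj = 0.270) and -0.58 for Col5a3 (padj = 0.0537). Col6a3 had -0.72 (padj = 0.0909), Col15a1 -0.84 (padj = 0.0826) and Col14a1 -0.55 (padj = 0.315). Those nearest to 0 were Col18a1 (-0.22, padj = 0.476), Col12a1 (-0.13, padj = 0.830) and Col22a1 (-0.0011, padj = 0.997).

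In the subset of libraries with a positive length trend, which at 28m were replicates 4 and 8 set against all 7 of the 6m libraries, 6 genes fell and 1 rose of 37 tested, while 5.9% of all genes fell and 6.6% rose. The 6 were Col4a1, Col4a2, Col4a4, Col6a6, Col15a1 and Col13a1 (log2fc -0.88, padj = 0.0450), the last of which had not passed with all mice. Col1a1 then had a log2fc of -2.62 (padj = 0.0877), Col3a1 of -2.49, Col4a1 of -1.28 (padj = 0.0114), Col6a6 of -1.69 (padj = 0.0407), Col15a1 of -1.68 (padj = 0.0211) and Col7a1 of 0.37 (padj = 0.0189). Against the first-run libraries of the same 6m mice, 13 genes fell and 1 rose, while of all 12984 genes 1422 fell (11.0%) and 1559 rose. Those that lost their call were Col1a2 (log2fc -1.22, padj = 0.0776), Col3a1 (-1.60, padj = 0.0614), Col5a2 (-1.11, padj = 0.0514), Col12a1 (-0.64, padj = 0.186), Col14a1 (-1.003, padj = 0.0807) and Col18a1 (-0.61, padj = 0.0778). Over all 26 fits of the 28m comparison, which changed the tool, scaling, filter, depth or mice, Col4a1, Col4a2, Col6a6 and Col7a1 passed in 26 and Col4a4 in each of the 25 that tested it. Col15a1, Col4a3, Col6a1 and Col6a2 passed in 25 of 26, Col5a1, Col5a3, Col6a3 and Col22a1 in 24, Col1a1 in 23 and Col18a1 in 22. Col5a2 passed in 18, Col3a1 in 16, Col14a1 in 13, Col1a2 in 11 and Col12a1 in 10. Of the genes that did not pass with edgeR, TMM scaling and all mice, Col24a1 passed in 5 and Col11a1 in 3. Col8a2, Col11a2, Col13a1, Col20a1 and Col27a1 passed in 1 each.

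**Figure D3:**
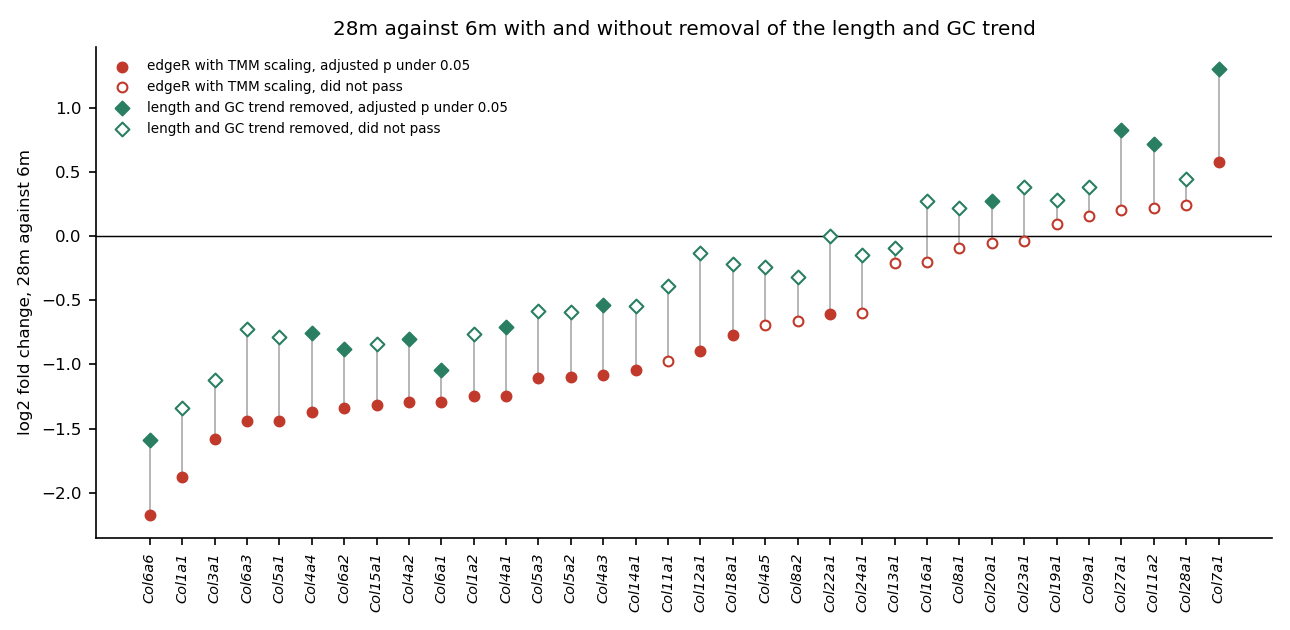
Log2 fold change at 28m against 6m (y axis) of the 34 collagen genes tested (x axis, in order of the value from edgeR with TMM scaling); circles are that fit and diamonds the fit with the length and GC trend removed, filled where padj was under 0.05. The diamonds lie above the circles for every gene shown, and the 7 filled diamonds below 0 are genes of types IV and VI.

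The comparison of 24m with 6m asked the same of the younger of the old groups. Of 35 genes tested 0 passed in edgeR's test and 0 with DESeq2, while 1 had an unadjusted p under 0.05 with edgeR and 4 with DESeq2. Over all 13103 genes tested, 0.084% passed in edgeR's test, 45 passed as lower and 137 as higher with DESeq2, and 1546 (edgeR) and 1742 (DESeq2) had an unadjusted p under 0.05. The median log2fc was -0.11 over the collagen genes and 0.028 over all genes. It ran from -0.31 to 0.19 over the fits that left out a mouse, and was 0.19 without 6m replicate 2 and -0.31 without 24m replicate 2.

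At 24m the groups overlapped for all 35 genes. The share of all genes whose groups overlapped is not given for 24m. Whether the collagen genes differed from other genes in this was therefore not tested. Col1a1 had 61.9, 90.3 and 648 CPM in the first-run 6m libraries and 35.6, 85.2 and 697 CPM at 24m (log2fc -0.13, SE 0.701). Col3a1 had 116, 161 and 1381 CPM and 73.9, 168 and 838 CPM (log2fc -0.49, SE 0.646). At standard errors of this size, a 2-fold change in these genes was not detectable. Col4a1 had 101, 162 and 292 CPM and 65.6, 134 and 165 CPM (log2fc -0.48, SE 0.236, padj = 0.435), and Col6a6 had 1.59, 3.31 and 6.97 CPM and 0.524, 2.84 and 4.40 CPM (log2fc -0.52, SE 0.396, padj = 0.577). Col7a1 had 35.4, 39.9 and 42.4 CPM and 31.1, 45.2 and 55.9 CPM (log2fc 0.18, SE 0.117, padj = 0.528), and Col15a1 had the value with p under 0.05 (log2fc -0.52, SE 0.225, padj = 0.400). The length trend was present here too, with a Spearman correlation of -0.314 across all genes.

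Whether the age effect at 28m differs from that at 24m was tested as the difference of both contrasts over all 29 libraries. Of 37 collagen genes 0 passed, as for all 13455 genes (0.0%), and 9 had an unadjusted p under 0.05 with edgeR and 11 with DESeq2, as had 1611 and 1720 of all genes. The estimate was below 0 for 33 of the 37, with a median of -0.74 against -0.035 over all genes. With the length and GC trend removed the median was -0.35 against 0.015, and 3 collagen genes had an unadjusted p under 0.05. For the 5 genes whose groups did not overlap in the second run, the difference was -0.90 for Col4a2 (SE 0.404, padj = 0.407), -0.66 for Col4a3 (SE 0.282, padj = 0.399), -1.21 for Col4a4 (SE 0.289, padj = 0.398), -1.64 for Col6a6 (SE 0.501, padj = 0.398) and 0.42 for Col7a1 (SE 0.158, padj = 0.399). Without 24m replicate 4, Col4a2, Col4a4 and Col6a6 passed as lower and Col7a1 as higher, in a fit in which 453 genes passed as lower and 1204 as higher over the whole table. That mouse had the lowest value of 15 of 34 collagen genes among the 24m mice and a negative length trend. With all mice, the age effects at 28m and 24m were not shown to differ.

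The spread between mice was wide and shared across the collagen genes. Of the 34 genes tested in both comparisons, 6m replicate 2 had the highest level of its group for 26 in each run, 24m replicate 2 for 19 and 28m replicate 5 for 20. The 28m mouse with the most collagen, replicate 5, also had the highest summed fibroblast markers of its group (1431 CPM), and 24m replicate 2 had the highest immune (777 CPM) and tendon (585 CPM) markers of its group. The highest fibroblast sum at 24m was that of replicate 4 (2281 CPM, against 1375 CPM in replicate 2), the mouse with the lowest level of 15 collagen genes. The lowest level of 18 genes fell in 28m replicate 3. Col1a1 differed 19.6-fold between the highest and lowest mouse at 24m and 12.2-fold at 28m, and Col7a1 differed 1.80-fold and 1.54-fold.

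**Figure D4:**
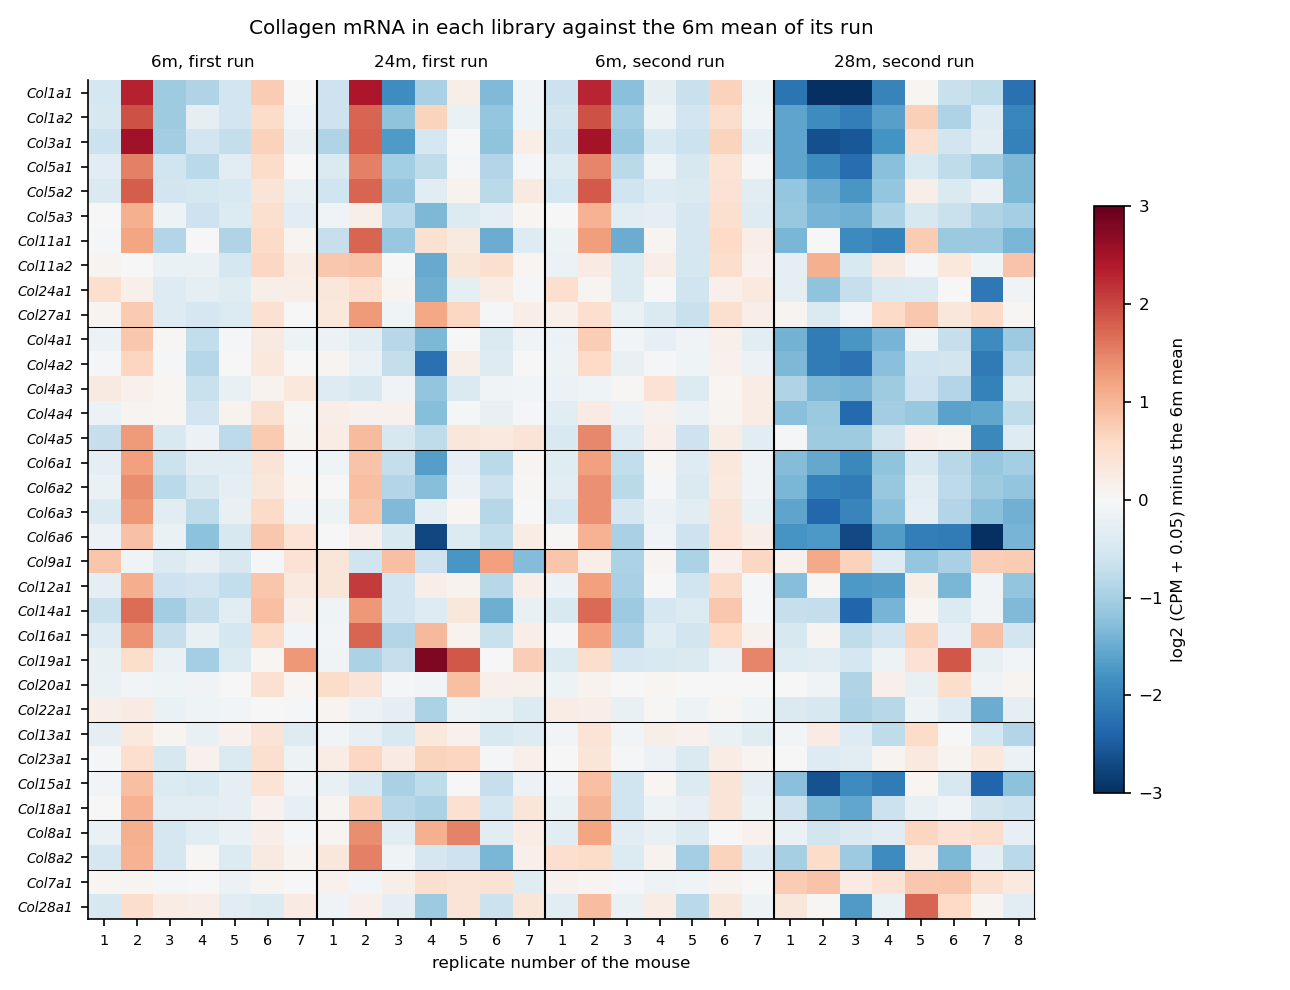
Log2 of CPM plus 0.05 minus the mean of the 6m libraries of the same run (colour, from -3 to 3) for the 34 collagen genes tested in both comparisons (rows, by class) in the 29 libraries (columns, by group and replicate number of the mouse). The columns of 6m replicate 2 in both runs and of 24m replicate 2 are red over the fibrillar genes, and the 28m columns are mostly blue over types I, III, IV, V and VI and red for Col7a1.

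Since each 6m mouse had 2 libraries, the spread between mice can be set against that between libraries of 1 mouse. The SD between mice of log2 CPM had a median of 0.552 over the 34 genes (0.0975 to 1.24). The SD of the differences between the repeat libraries had a median of 0.24 (0.0615 to 0.61), and was the smaller value for 27 of 34 genes. For Col1a1 the SD between mice was 1.17 and that of the repeat differences 0.275, and for Col1a2 they were 0.973 and 0.0615. Without 6m replicate 4, the SD of the repeat differences was 0.0574 for Col1a1 and 0.0327 for Col1a2. The high fibrillar levels of 6m replicate 2 returned in its second library, at 648 and 735 CPM for Col1a1 and 1381 and 1364 CPM for Col3a1. No collagen gene passed between the runs at 6m, with 0 of 34 in edgeR's test and in DESeq2, 0 at an unadjusted p under 0.05 in either, and 0.0% of all genes passing. With the mouse as a block, which pairs the libraries, 0 passed and 5 had an unadjusted p under 0.05, as had 1052 of all 12884 genes. The mouse least alike in its libraries was replicate 4. Its second-run value was higher for 30 of 34 genes, by a median log2 difference of 0.336, and the differences reached 1.47 for Col6a6, 1.22 for Col4a3 and 1.03 for Col4a2. Its first-run library was the 1 of the 6m libraries with a negative length trend.

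**Figure D5:**
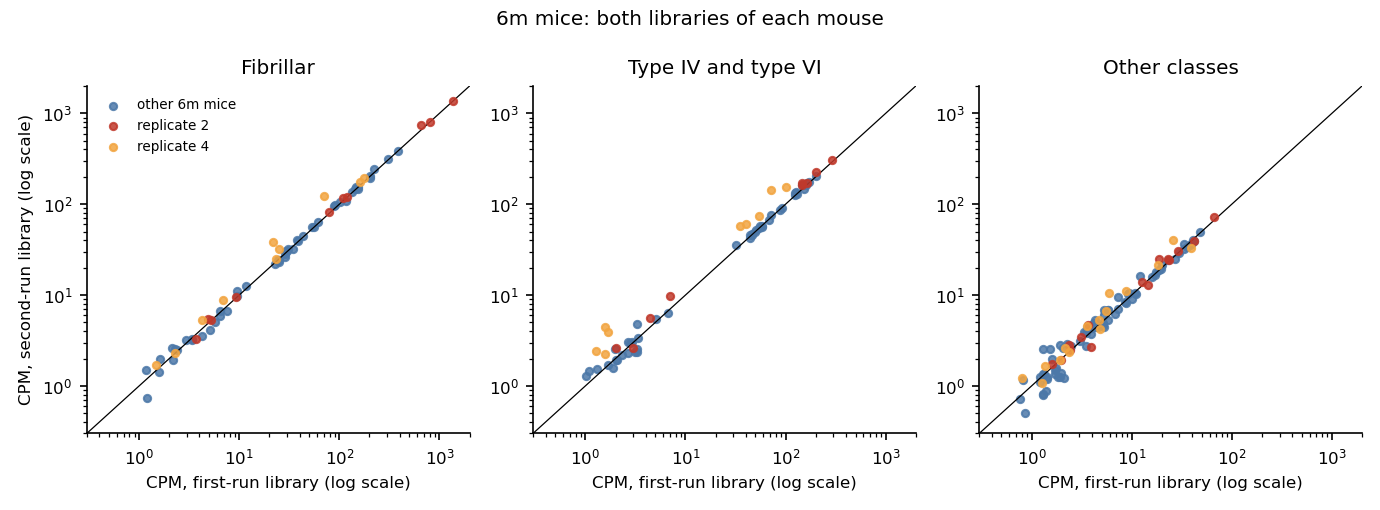
CPM of the collagen genes in the second-run library (y axis, log scale) against the first-run library (x axis, log scale) of the same 6m mouse, by class; each point is 1 gene in 1 mouse and the line marks equal values. Replicate 2 (red) lies high on the line among the fibrillar genes, and replicate 4 (orange) lies above the line for 30 of 34 genes.

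The genes that make, process, bind and degrade collagen were read from the same fits. Of the enzymes and chaperones of folding and modification, 8 of 18 tested fell and 2 rose at 28m, where 22.9% of all genes fell and 24.3% rose. These shares apply to each list that follows, and where the length trend was removed the background is 1673 of 12994 genes that fell (12.9%) and 2285 that rose. Serpinh1, the collagen-specific chaperone HSP47, fell (log2fc -0.59, padj = 0.0349), as did P4ha1, a catalytic subunit of prolyl 4-hydroxylase (-0.33, padj = 0.00454), Leprel1, a prolyl 3-hydroxylase (-1.40, padj = 0.00830), and Glt25d2, a collagen galactosyltransferase (-0.79, padj = 0.00104). P4hb, the other subunit of prolyl 4-hydroxylase and a general disulfide isomerase, rose (0.35, padj = 0.00209), as did the ion channel gene Tmem38b (0.37, padj = 0.0130). Plod2, a lysyl hydroxylase, did not pass (-0.28, padj = 0.0881). With the length trend removed 7 of this list fell and 1 rose. P4ha1 (log2fc -0.19, padj = 0.0813) and Tmem38b (0.25, padj = 0.0722) then did not pass. Of the genes of procollagen processing and crosslinking, 6 of 12 tested fell and 0 rose. Adamts3, which removes the N-propeptide of fibrillar procollagen, had a log2fc of -1.29 (padj = 0.000666), Loxl2, a lysyl oxidase, of -1.17 (padj = 0.00321), and Lox itself of -0.64 (padj = 0.114). With the trend removed this list again gave 6 lower and 0 higher.

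Of the collagen receptors, 5 of 8 tested fell and 0 rose, among them the integrin genes Itga11 (log2fc -1.57, padj = 0.000140) and Itga1 (-1.22, padj = 0.000896) and the receptor kinase gene Ddr2 (-0.84, padj = 0.000919). With the length trend removed this list gave 2 lower and 2 higher, and Ddr2 did not pass (log2fc -0.33, padj = 0.0604). Of the other basement membrane proteins, 9 of 11 fell and 0 rose, with a log2fc of -1.50 for Hspg2 (perlecan, padj = 0.000563) and of -1.21 for Nid1 (nidogen, padj = 0.000872), and 5 fell with the trend removed. Of the proteases and inhibitors, 3 of 10 tested fell, near the share of all genes, and 1 rose, against 2 and 2 with the trend removed. Mmp15 (-1.07, padj = 0.000381) and Mmp9 (-1.23, padj = 0.0222) fell, Mmp2 did not pass (-0.72, padj = 0.0637), and Timp1, an inhibitor of these proteases, rose (2.43, SE 0.657, padj = 0.00774). Its range was 0.395 to 1.60 CPM at 6m and 0.506 to 11.5 CPM at 28m, and the groups overlapped. Of the genes of TGF-beta signalling, the main inducer of fibrillar collagen genes, 5 of 11 fell and 0 rose, with Smad3 at -1.24 (padj = 0.000706), Smad4 at -0.41 (padj = 0.0113) and Tgfb1 at 0.26 (padj = 0.365). With the trend removed 1 of this list fell and 3 rose, and Smad4 did not pass (log2fc -0.31, padj = 0.0638). No gene of these 6 lists passed at 24m.

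Markers of the cell types that the muscle holds were read in the same way, against 22.9% of all genes that fell and 24.3% that rose. The summed fibroblast markers ran from 1079 to 2009 CPM at 6m and from 517 to 1431 CPM at 28m, and 3 of 12 fell and 1 rose. The tendon markers ran from 223 to 408 and from 122 to 416 CPM (2 of 9 fell, 1 rose), so that the counts of both lists that fell were near the share of all genes. The endothelial markers ran from 513 to 589 and from 341 to 471 CPM (6 of 10 fell, 2 rose), and those of smooth muscle and pericytes from 659 to 744 and from 371 to 643 CPM (5 of 8 fell, 1 rose). The sums of these vascular lists did not overlap between the 28m and 6m libraries of the second run. In the first-run library of 6m replicate 4, which had a negative length trend, they were 432 and 444 CPM, inside the 28m ranges. Of single genes, 6.18% had every 28m mouse below every 6m mouse, and no such share was made for sums. The marker lists are not given here with the length trend removed. The immune markers ran from 99.7 to 310 and from 135 to 778 CPM (0 of 10 passed), the Schwann cell markers from 54.3 to 72.1 and from 43.7 to 76.2 CPM (1 of 8 rose), and the adipocyte markers from 149 to 309 and from 134 to 430 CPM (1 of 7 rose). Slow-fibre markers ran from 79.5 to 128 and from 102 to 256 CPM (4 of 7 rose). Of the erythrocyte list Hba-a1 and Hba-a2 were at 0 in every library and 0 of 2 genes tested passed, and the other lists had no marker at 0 in all libraries of a group. The part of these cell types in the collagen values was not tested.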

How the data were processed

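Per the labels and the study's methods, the authors enriched poly-A RNA from TA, made NEBNext Ultra II libraries, aligned single-end reads to mm10 with STAR 2.5.4b and counted reads per gene with its GeneCounts option. The deposited values are raw counts, with no normalization, in 1 table of 29 libraries. The strand setting is not given in the sources used here. The members and lists were chosen with earlier results of these data known. Replicates are separate mice.

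Counts were fitted with edgeR 4.0.16 (glmQLFit, TMM scaling, filterByExpr) under R 4.3.3 on all genes, with Benjamini-Hochberg adjustment, a threshold of 0.05 and, for DEGs, an absolute log2fc of 1. The standard error is the absolute log2fc over the square root of F. Levels are CPM with TMM factors over all libraries, and lengths are the exons of GENCODE M21. Ratios were tested by exact permutation (scipy 1.17.1) over 6435 assignments of mice at 28m and 3432 at 24m. Collagen genes that passed, and the most abundant 2 of each class, are described by mouse. In each further list, the largest 2 rises and falls that passed were named with 10 genes chosen by role. The fit was tested on simulated data with 200 changed genes. Alternatives were DESeq2 1.42.0, limma-voom (limma 3.58.1), other scalings and filters, thinning, a length and GC trend removed with mgcv 1.9.3, the other 6m run, a mouse block, and leaving out each mouse. The 6m libraries pair by mouse, per the study's methods, and same-mouse deviations correlated at 0.218 to 0.814.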

Additional observations from a re-analysis of the deposited data

Results flagged for a closer look

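In 33 of 100 sets of values, each 1 collagen gene in 1 group of libraries, the highest or lowest mouse lay apart from the others by Dixon's 95% limit. The sets were the 25 genes described by mouse in each group, on CPM that was not put on a log scale. The limit flags about 1 in 20 sets of normally distributed values, a rate that need not hold for these skewed values. Sets of the same mouse are not independent. Of the 33 flagged sets, 21 were the highest value of 6m replicate 2. In its first-run library these were Col1a1 (648.1 CPM), Col1a2 (797.7 CPM), Col3a1 (1381 CPM), Col5a1 (107.6 CPM), Col5a2 (118.2 CPM), Col6a1 (162.3 CPM), Col6a2 (147.1 CPM), Col8a1 (12.59 CPM), Col8a2 (3.879 CPM) and Col18a1 (22.98 CPM). In its second-run library they were Col1a1 (735.1 CPM), Col1a2 (812.2 CPM), Col3a1 (1364 CPM), Col4a1 (308.9 CPM), Col4a2 (224.7 CPM), Col5a1 (116.2 CPM), Col5a2 (119.3 CPM), Col6a1 (170.8 CPM), Col6a2 (161.3 CPM), Col6a3 (169.6 CPM) and Col8a1 (14.06 CPM).

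Another 9 were the highest value of 24m replicate 2, for Col1a1 (697.2 CPM), Col1a2 (714.6 CPM), Col3a1 (837.7 CPM), Col5a1 (107.2 CPM), Col5a2 (112.6 CPM), Col6a2 (105.6 CPM), Col8a2 (5.364 CPM), Col12a1 (38.54 CPM) and Col14a1 (22.64 CPM). At 28m, replicate 5 stood apart for Col1a2 (358.0 CPM) and Col28a1 (3.151 CPM). The single low value was that of Col4a4 in 24m replicate 4 (0.7693 CPM).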

How the results depend on the processing

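Leaving out 1 mouse at a time gave 13 to 21 collagen genes passing at 28m (13 without 6m replicate 2, which ends the calls of Col1a1, Col1a2, Col3a1, Col5a2, Col12a1, Col14a1 and Col18a1), 0 at 24m and 0 to 4 for the difference of the age effects (4 without 24m replicate 4). Removing the length and GC trend gave 11 at 28m, and the libraries with a positive length trend, a subset chosen after seeing the data, gave 7. The other alternatives gave 14 to 21 at 28m and 0 elsewhere. The 14 came with the 6m libraries of the other run, which ended the calls of Col1a2, Col3a1, Col5a2, Col12a1, Col14a1 and Col18a1. With the mouse as a replicate block, 0 genes passed for the difference of the age effects and 0 between the runs, so that no call changed, while 16 and 5 had an unadjusted p under 0.05. Without the block these counts were 8 in limma-voom, the tool of the first of these fits, and 0 in edgeR, that of the second. Both of these fits hold the 6m libraries of both runs, so that the other run could not be tried in them.

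Of the ratios, Col1a1 to Col3a1 at 28m was -0.2267 (log2 difference) against the 6m libraries of the other run and -0.4205 as a difference of medians, neither past the threshold, and -0.4783 to -0.3523 with a mouse left out. Col1a1 to Col1a2 at 28m was -0.706 to -0.4576 with a mouse left out, and passed in 1 of 15 such fits, without 28m replicate 6. The ratios that turned in sign had not passed. With medians in place of means these were 0.01093 for Col1a1 to Col1a2 at 24m, -0.2024 for Col1a1 to Col3a1 at 24m, -0.07019 and -0.07835 for Col4a1 to Col4a2 at 28m and 24m, -0.02184 for Col6a1 to Col6a2 at 28m, and -0.2885 and -0.2432 for Col1a2 to Col4a1 at 28m and 24m. With the other 6m run they were -0.2048 for Col1a1 to Col3a1 at 24m, -0.008051 for Col6a1 to Col6a2 at 28m and -0.00742 for Col1a2 to Col4a1 at 28m. With the trend removed, which was added after seeing the data, they were -0.002929 for Col4a1 to Col4a2 at 24m, -0.1378 for Col6a1 to Col6a2 at 28m and -0.03505 for Col1a2 to Col4a1 at 28m. With a mouse left out, Col1a1 to Col1a2 at 24m ran from -0.3495 to 0.03595, Col1a1 to Col3a1 at 24m from -0.09928 to 0.08085, Col4a1 to Col4a2 at 24m from -0.1456 to 0.04783 and Col1a2 to Col4a1 at 28m from -0.1073 to 0.2863. The cause was not tested.

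None of the genes that turned in sign had passed with edgeR, TMM scaling and all mice. At 28m the log2fc of Col23a1 was 0.002919 with upper-quartile scaling, 0.09524 after thinning, 0.382 with the trend removed, 0.2389 with the other 6m run and -0.1067 to 0.03562 with a mouse left out. That of Col8a1 was 0.2164 with the trend removed and -0.1889 to 0.2167 with a mouse left out, and that of Col28a1 was -0.3829 in the libraries with a positive length trend and -0.1517 to 0.4643 with a mouse left out. The log2fc at 28m also took both signs over the 26 fits for Col9a1 (-0.0015 to 0.38), Col16a1 (-0.74 to 0.27), Col19a1 (-0.38 to 0.49) and Col20a1 (-0.16 to 0.28), and of these only Col20a1 passed in any, with the trend removed (padj = 0.0468). At 24m that of Col1a1 was 0.08184 in the libraries with a positive length trend, and with a mouse left out it ran from -1.171 to 0.6444, that of Col1a2 from -0.6598 to 0.4732 and that of Col3a1 from -1.17 to 0.4231. Depth limits the 9 genes with at most 18 counts in a library, which were not tested at 28m.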
